A study of Mus musculus with 9 samples.

Results

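The Smad genes other than Smad1 and Smad2 were followed by RNA sequencing in B16 cells, a mouse melanoma line. The co-repressor gene Skil and the inhibitor of differentiation genes Id1, Id2 and Id3 were followed beside them. The genes were chosen by symbol, and all 10 (Smad3, Smad4, Smad5, Smad6, Smad7, Smad9, Skil, Id1, Id2 and Id3) were found among the 22972 gene names of the deposited FPKM values (fragments normalized for the length of the gene and the size of the library). A total of 9 libraries were analyzed, from wild-type cells collected on day 3 on PDMS, a flexible silicone film, in DMEM with serum. There were 3 libraries without straining (CTL), 3 after cyclic straining for 72 h (MS) and 3 with blebbistatin, an inhibitor of non-muscle myosin II, at 100 ng/mL for 72 h. The labels of the last group give blebbistatin alone, whereas the study's heat map names straining with blebbistatin, so it is called the blebbistatin group here and whether its cells were also strained cannot be told from the labels. The replicates were numbered as parallel experiments of 1 cell line, and the p-values measure only the spread between these libraries, which may be technical in part.

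SMADs carry signals from receptors of the TGF-beta family to the nucleus. Ligands of the TGF-beta and activin branch lead to phosphorylation of SMAD2 and SMAD3, and those of the BMP branch to phosphorylation of SMAD1, SMAD5 and SMAD9, and both kinds enter the nucleus with SMAD4. SMAD6 and SMAD7 are inhibitory SMADs that are themselves induced by the pathway, SMAD6 mainly by BMP. ID proteins bind E proteins such as TCF3 and keep them from DNA, and Id1 and Id3 are well-known direct targets of BMP signaling. SKIL (SnoN) represses SMAD target genes and its transcription rises with TGF-beta signaling.

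The melanocyte lineage markers summed to between 7444 and 12933 FPKM per library, against at most 0.567 for 6 fibroblast genes, 4.32 for 6 macrophage genes and 0.0363 for 6 keratinocyte genes. The number of reads is unknown and no counting interval can be given. The columns summed to between 439939 and 484093 FPKM. CTL replicate 1, MS replicate 3 and blebbistatin replicate 2 were set apart from the other libraries by their stress genes. In these 3 libraries 6 of 8 genes of the integrated stress response were above each of the other 6 libraries, for example Ddit3 (the CHOP transcription factor) at 99.1 to 137 FPKM against 18.5 to 45.7. As 1 such library lies in each group, the split does not follow the treatment. On the first principal component, the axis of largest variance, the 3 libraries were at -42.1, -10.0 and -43.9. Blebbistatin replicate 1, at -7.29, lay close to MS replicate 3, so that axis does not set MS replicate 3 clearly apart. The main results that rest on the 3 libraries are given with and without them.

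Over the 9 libraries, Id2 was the most abundant of the 10 genes, at 48.9 ± 13.3 FPKM (SD, n = 9). It was followed by Id3 at 19.6 ± 15.7, Smad5 at 17.4 ± 4.01, Smad4 at 14.7 ± 2.28, Smad3 at 13.4 ± 3.59, Id1 at 4.17 ± 3.98, Smad6 at 3.45 ± 1.05, Smad7 at 1.46 ± 0.798, Skil at 1.30 ± 0.712 and Smad9 at 1.00 ± 0.308 FPKM. Id2 was above Id3 in 9 of 9 libraries, and Smad6 was above Smad7 in 9 of 9. The other neighbors in this order changed places between libraries. Id3 was above Smad5 in 4 libraries, Smad5 above Smad4 in 7, Smad4 above Smad3 in 6, Smad3 above Id1 in 8, Id1 above Smad6 in 5, Smad7 above Skil in 6 and Skil above Smad9 in 5.

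**Figure D1:**
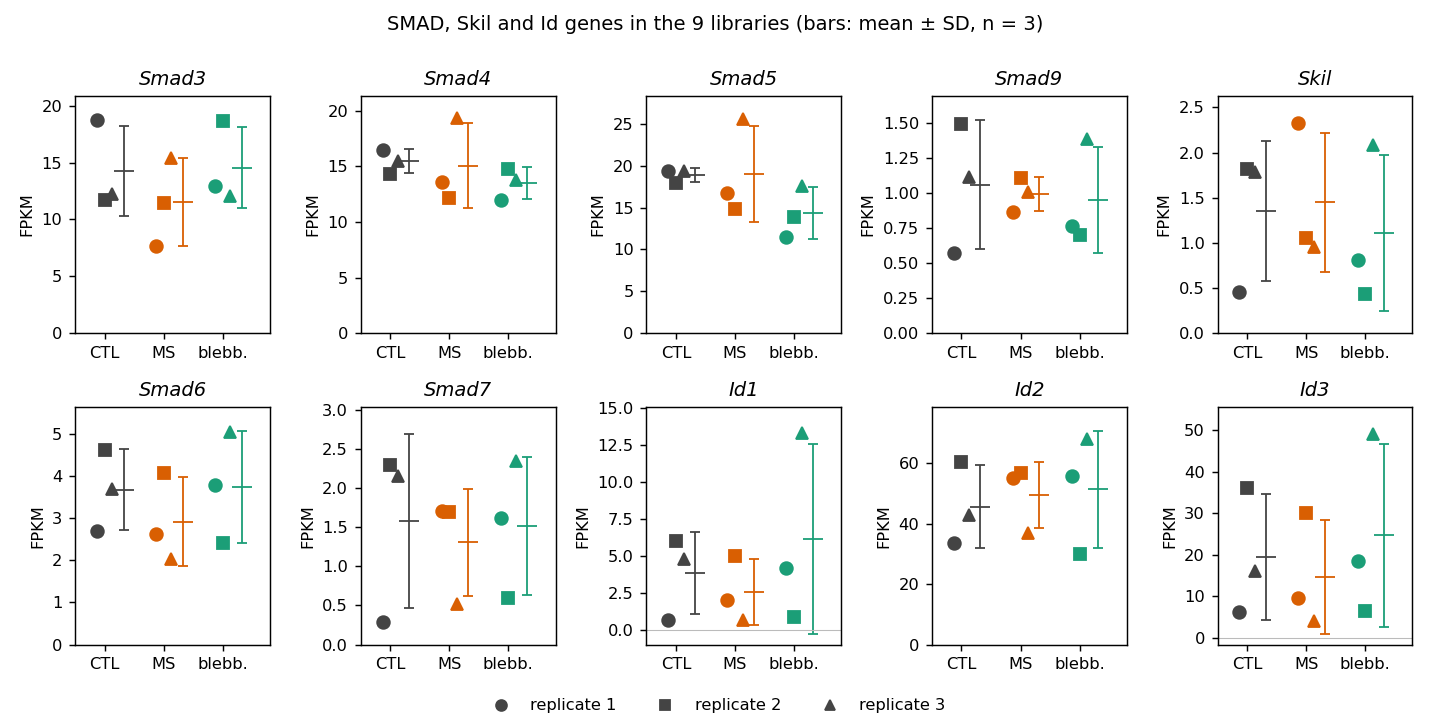
FPKM of the 10 genes in the 9 libraries, in CTL, MS and the blebbistatin group (blebb.). Points are libraries, with the symbol giving the replicate number, and the bars beside them are the mean ± SD of 3 libraries. Id1 ran from 0.685 to 13.3 FPKM and Id3 from 3.94 to 49.0, with low and high libraries in every group, while Smad4 stayed between 12.0 and 19.4.

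Among the receptor-activated SMADs, Smad3 was the main SMAD of the TGF-beta branch at the RNA level and Smad5 that of the BMP branch. The level of Smad3 over that of Smad2 was above 1 in 9 of 9 libraries, from 1.30 in MS replicate 1 to 5.81 in blebbistatin replicate 2 (median 3.14). Smad5 made up between 70.4% (blebbistatin replicate 1) and 87.4% (CTL replicate 1) of the summed FPKM of Smad1, Smad5 and Smad9, with a median of 76.2%. Smad9, the remaining SMAD of the BMP branch, lay close to the minimum of 1 FPKM set for the genes tested.

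Smad3 was measured at 18.8, 11.7 and 12.2 FPKM in CTL, 7.68, 11.5 and 15.4 in MS and 13.0, 18.7 and 12.0 in the blebbistatin group. The highest values were those of the 3 libraries set apart, one in each group, and the groups overlapped. It differed by -0.30 ± 0.27 (SE) on the log2 scale in MS against CTL (adjusted p = 1.00, limma), and in the blebbistatin group against MS it was 0.34 (adjusted p = 0.897, limma).

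Smad5 was at 19.4, 17.9 and 19.4 FPKM in CTL, 16.8, 14.8 and 25.5 in MS and 11.5, 13.9 and 17.6 in the blebbistatin group. All 3 libraries of the blebbistatin group were below the 3 CTL libraries, the highest of them (17.6 FPKM) lying just under the lowest CTL library (17.9 FPKM). Smad5 was the only one of the 10 genes with groups that did not overlap, and only in the blebbistatin group against CTL. In that comparison 2.08% of all genes tested did not overlap. Its log2 fold change there was -0.39 (95% interval -0.88 to 0.089, unadjusted p = 0.0984, adjusted p = 1.00, limma). Against MS it was -0.37 (95% interval -0.85 to 0.11, unadjusted p = 0.119, adjusted p = 0.897, limma). Without the 3 libraries set apart the values were -0.36 and -0.13.

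Smad4, the partner of both branches, varied least of the abundant members. It was at 16.5, 14.3 and 15.5 FPKM in CTL, 13.6, 12.2 and 19.4 in MS and 12.0, 14.8 and 13.7 in the blebbistatin group. The highest value was that of MS replicate 3, and the groups overlapped in every comparison. Its log2 fold change in MS against CTL was -0.06, with a 95% interval of -0.46 to 0.34 (adjusted p = 1.00, limma). Smad9 was at 0.576, 1.50 and 1.11 FPKM in CTL, 0.866, 1.11 and 1.01 in MS and 0.765, 0.705 and 1.39 in the blebbistatin group. The MS libraries lay within the range of both other groups.

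Id1 and Id3 varied more between libraries than the SMADs that act on them. Id3 was at 6.12, 36.1 and 16.1 FPKM in CTL, 9.65, 30.1 and 3.94 in MS and 18.5, 6.46 and 49.0 in the blebbistatin group. Its highest library was thus 12.4 times its lowest, and each group held at least 1 library under 7 and 1 library over 30 FPKM. Id1 was at 0.699, 6.0 and 4.79 FPKM in CTL, 2.05, 4.99 and 0.685 in MS and 4.18, 0.898 and 13.3 in the blebbistatin group, a span of 19.4-fold. The SD of log2(FPKM + 1) within groups was 1.30 for Id3 and 1.18 for Id1, against a median of 0.25 over the genes tested. This placed Id3 at percentile 99.8 and Id1 at percentile 99.5 of the 10109 genes tested, with no test applied. With the trend of each library with GC content removed, both stood at percentile 99.9. Without the 3 libraries set apart the SD was 0.96 for Id3 and 0.73 for Id1, against a median of 0.17, at percentiles 99.8 and 99.2, and the spans were 5.08-fold and 6.48-fold.

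Id2, a target shared by several pathways, had a narrower span. It was at 33.6, 60.6 and 42.9 FPKM in CTL, 55.1, 56.7 and 37.1 in MS and 56.0, 30.0 and 68.1 in the blebbistatin group. The lowest library of each group was the one set apart. Smad6 was at 2.70, 4.64 and 3.70 FPKM in CTL, 2.64, 4.09 and 2.04 in MS and 3.78, 2.41 and 5.06 in the blebbistatin group. Smad7, which blocks both branches at the receptors, was at 0.293, 2.29 and 2.15 FPKM in CTL, 1.70, 1.70 and 0.513 in MS and 1.61, 0.590 and 2.34 in the blebbistatin group. In both inhibitory SMADs the blebbistatin replicate 3 library was highest, as it was for Id1, Id2 and Id3.

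Id1, Id2, Id3 and Smad6 put the libraries of every group in the same order. Replicate 2 was highest in CTL and MS and replicate 3 in the blebbistatin group, and the lowest were CTL replicate 1, MS replicate 3 and blebbistatin replicate 2. Only 0.673% of the other genes tested had the order of Id3 within all 3 groups. Without the 3 libraries set apart, which leaves a pair in each group, Id1, Id2, Smad6 and Smad9 had the order of Id3 in 3 of 3 groups, as did 2.6% of the other genes. Over all libraries, Smad7, Smad9 and Skil had this order in 2 of the 3 groups, and Smad3, Smad4 and Smad5 in 0. Atoh8, a transcription factor gene and the only one of 8 further BMP target genes to average 1 FPKM or more, also had it in 3 of 3. Atoh8 was at 1.39, 5.00 and 4.36 FPKM in CTL, 2.75, 4.75 and 1.40 in MS and 4.09, 1.12 and 5.46 in the blebbistatin group.

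**Figure D2:**
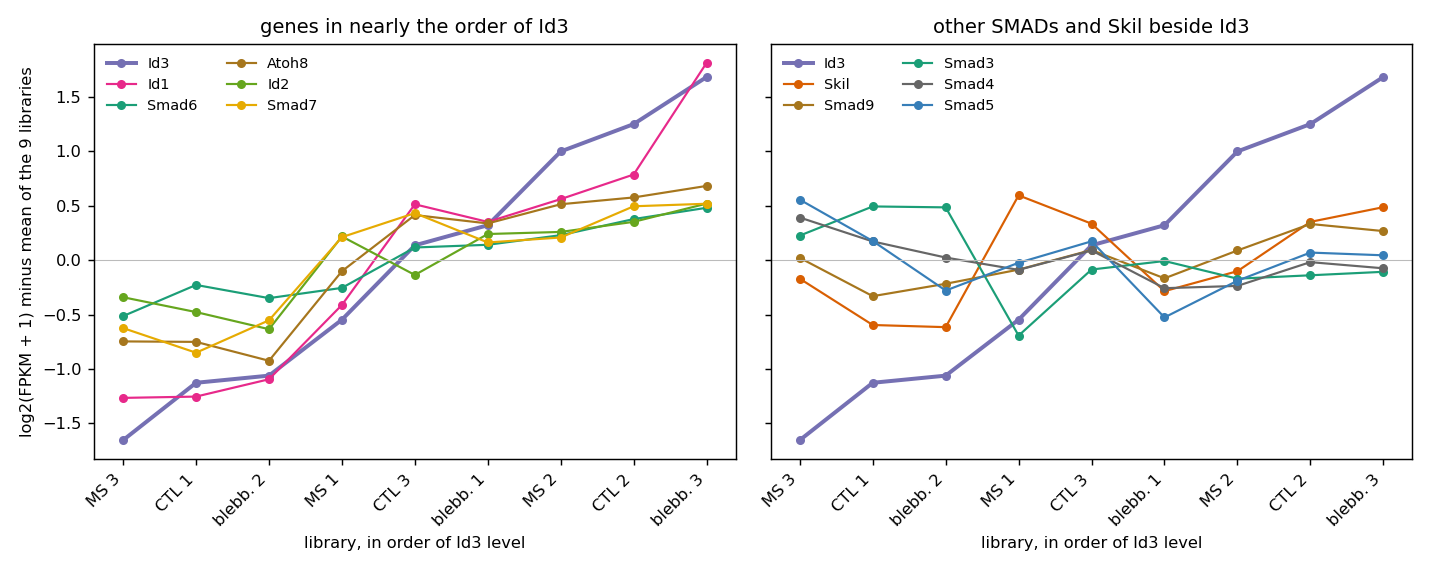
Log2(FPKM + 1) of each gene minus its mean over the 9 libraries, with the libraries placed in the order of Id3. Left, Id1, Smad6, Atoh8, Id2 and Smad7 climb with Id3, from -1.66 to 1.68 in Id3 itself. Right, Smad3, Smad4, Smad5, Smad9 and Skil beside Id3, which do not follow its order as closely.

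Over the 9 libraries, log2(FPKM + 1) of Smad6 rose with that of Id3 with Pearson's r = 0.98 and Spearman's rho = 0.95 (exact permutation, two-sided, adjusted p = 9.65e-05 and 0.00176 over 10 relations). No other of the 10108 genes ranked had a higher r with Id3 than Smad6, and Id1 was next with r = 0.97 and rho = 0.98 (exact permutation, adjusted p = 9.65e-05 and 0.000496). Atoh8 held rank 8 with r = 0.94 and rho = 0.92 (exact permutation, adjusted p = 0.000707 and 0.00328). Centered on its mean on the log2 scale, Id3 was at -1.66 to -1.06 in the 3 libraries set apart and at -0.55 to 1.68 in the others. The relations over the 9 libraries include this split. Without the 2 libraries farthest from the median of Id3 (MS replicate 3 and blebbistatin replicate 3), r was 0.96 for Smad6, 0.95 for Id1 and 0.93 for Atoh8.

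The 3 relations also held in the 6 libraries that were not set apart. There r was 0.97 for Smad6, 0.91 for Id1 and 0.93 for Atoh8 (exact permutation, adjusted p = 0.0139, 0.0278 and 0.0139), and their ranks among all genes were 1, 10 and 4. Smad7 and Id2 differed in this respect. Over the 9 libraries Smad7 had r = 0.86 and rho = 0.85 (exact permutation, adjusted p = 0.00840 and 0.0121), and Id2 had r = 0.86 and rho = 0.92 (exact permutation, adjusted p = 0.0102 and 0.00328). In the 6 libraries r was 0.60 for Smad7 and 0.66 for Id2 (exact permutation, adjusted p = 0.278 for both), while the rho of Id2 was 0.94 (exact permutation, adjusted p = 0.0417).

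The abundant SMADs that carry the signal had negative coefficients with Id3 that did not pass the test. Smad5 had r = -0.34 and rho = -0.38 (exact permutation, adjusted p = 0.379 and 0.313), Smad3 r = -0.47 and rho = -0.62 (adjusted p = 0.232 and 0.107, exact permutation) and Smad4 r = -0.67 and rho = -0.65 (exact permutation, adjusted p = 0.0643 and 0.0951). In the 6 libraries r was 0.13, 0.60 and -0.06 (exact permutation, adjusted p = 0.897, 0.315 and 0.897). There rho was 0.086, 0.14 and 0.086, so the ranks did not bear out the r of Smad3. Smad9 had r = 0.74 and rho = 0.72 over 9 libraries (exact permutation, adjusted p = 0.0436 and 0.0614), of which only r passed, and r = 0.79 and rho = 0.66 over the 6 (exact permutation, adjusted p = 0.177 and 0.35). All of these relations were chosen after the values had been seen, and they are across libraries that share a common pattern, the first principal component holding 70.4% of the variance.

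**Figure D3:**
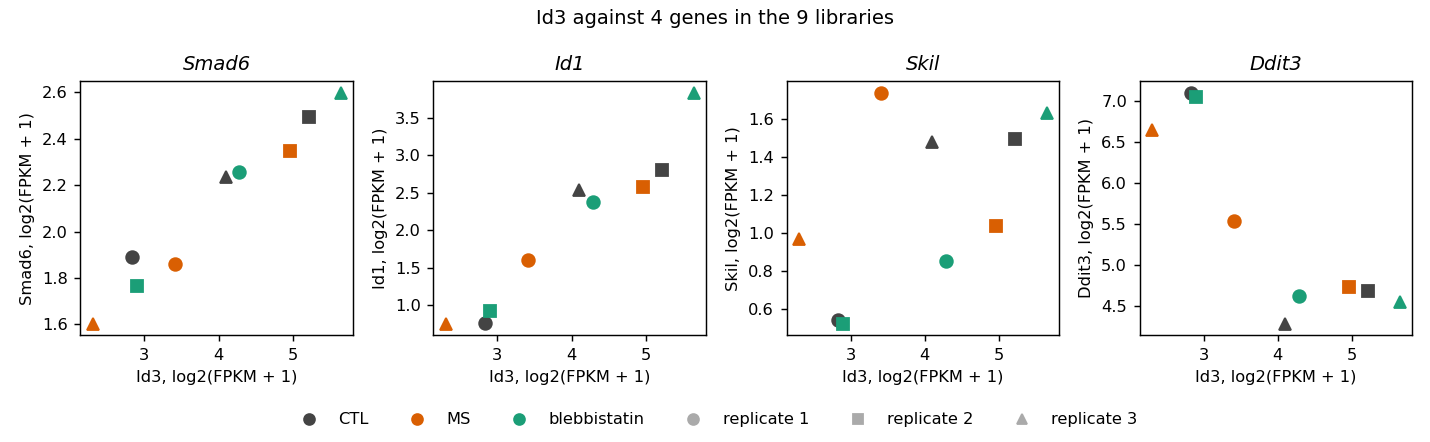
Id3 against Smad6, Id1, Skil and Ddit3, each as log2(FPKM + 1), with 1 point for each of the 9 libraries, colors for the groups and symbols for the replicate numbers. Smad6 and Id1 lie close to a line with libraries of all groups mixed along it (r = 0.98 and 0.97), Skil is scattered (r = 0.56), and the libraries with Ddit3 above 99 FPKM have the lowest Id3.

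The 5′ flanks of 3 of these co-varying genes are shown to give their sequence context, from RefSeq on GRCm38.p6, each 250 bases before to 50 bases after the transcription start, read 5′ to 3′ on the gene's strand. They lie at chr4:136143572-136143871 (plus strand) for Id3, chr9:64022010-64022309 (minus strand) for Smad6 and chr12:25096043-25096342 (minus strand) for Id2. Capitals mark GTCT or its reverse complement AGAC, the core of the SMAD3 and SMAD4 binding element, and GGCGCC, a GC-rich element bound by SMAD1 and SMAD5.
Id3: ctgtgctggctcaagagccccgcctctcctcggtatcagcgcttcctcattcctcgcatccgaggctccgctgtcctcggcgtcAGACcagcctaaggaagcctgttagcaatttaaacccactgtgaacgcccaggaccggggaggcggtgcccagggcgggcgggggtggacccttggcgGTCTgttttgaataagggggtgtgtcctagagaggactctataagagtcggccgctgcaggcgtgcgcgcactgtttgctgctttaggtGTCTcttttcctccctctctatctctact
Smad6: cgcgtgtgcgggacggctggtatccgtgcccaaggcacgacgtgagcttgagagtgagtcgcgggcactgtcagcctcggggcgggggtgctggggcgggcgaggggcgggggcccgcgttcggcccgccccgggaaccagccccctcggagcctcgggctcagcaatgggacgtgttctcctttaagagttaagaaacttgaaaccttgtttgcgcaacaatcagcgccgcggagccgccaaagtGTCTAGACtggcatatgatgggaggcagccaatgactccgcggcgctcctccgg
Id2: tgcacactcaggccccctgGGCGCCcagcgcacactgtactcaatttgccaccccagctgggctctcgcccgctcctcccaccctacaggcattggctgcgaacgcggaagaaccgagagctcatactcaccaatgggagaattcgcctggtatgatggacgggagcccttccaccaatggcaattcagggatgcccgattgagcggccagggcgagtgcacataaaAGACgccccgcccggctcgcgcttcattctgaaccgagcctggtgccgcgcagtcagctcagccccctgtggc
The Id3 window held 3 matches to GTCT on either strand and 0 to GGCGCC. The Smad6 window held the 8-base palindrome GTCTAGAC, in which the 2 orientations of the core meet and do not overlap, and which was present in 70 of 32851 RefSeq promoters (0.213%). The Id2 window held 1 match to GGCGCC and 1 to GTCT. Members that followed Id3 less closely held such matches too. The Smad3 window had 1 GTCT and 0 GGCGCC, and the Smad9 window 2 GTCT and 1 GGCGCC. The Smad5 windows had 1 or 2 GTCT and at most 1 GGCGCC. No window was available for Id1, and matches were not counted for Smad4, Smad7 and Skil. The part of these matches in the co-variation was not tested. Single matches are common, since 88.0% of all promoters of this length held GTCT on either strand and 11.9% held GGCGCC. Enhancers outside these windows were not examined.

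The 3 libraries set apart by the stress genes held the lowest values of several members. Id1 was at 0.685 to 0.898 FPKM in them and at 2.05 to 13.3 in the others, Id3 at 3.94 to 6.46 against 9.65 to 49.0, Id2 at 30.0 to 37.1 against 42.9 to 68.1 and Smad7 at 0.293 to 0.590 against 1.61 to 2.34. Smad3 was the reverse, at 15.4 to 18.8 against 7.68 to 13.0. Thus 4 of 10 members were lower in each of the 3 libraries and 1 was higher, beside 16.1% and 15.8% of all genes tested. Of 33 pathway genes tested, 4 were lower in each of the 3 libraries (Atoh8, Ccn2, Pmepa1 and Tcf4) and 7 were higher (Tgfb1, Gdf11, Acvr1b, Acvrl1, Ltbp3, Tgif1 and Ppm1a). Atoh8 (1.12 to 1.40 against 2.75 to 5.46 FPKM) and Smad1 (2.23 to 3.38 against 3.53 to 4.76) were lower. Of the TGF-beta target genes tested, Ccn2 (1.12 to 1.57 against 2.12 to 4.34) was lower as well. Jun (13.2 to 16.2 against 10.9 to 14.4) and Cdkn1a (148 to 168 against 164 to 217) overlapped. The intracellular regulator Pmepa1 (5.39 to 5.65 against 6.03 to 12.4) was lower. Tgfb1, the TGF-beta1 ligand (12.8 to 18.6 against 5.27 to 10.1), and Acvrl1, the ALK1 receptor (26.5 to 34.1 against 15.9 to 24.0), were higher. The part of the stress genes in these levels was not tested.

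Skil moved differently from the Id genes. It was at 0.458, 1.81 and 1.78 FPKM in CTL, 2.33, 1.05 and 0.959 in MS and 0.809, 0.438 and 2.09 in the blebbistatin group. MS replicate 1 was highest, a library in which Id3 was above only the 3 libraries set apart. Its r with Id3 was 0.56 over 9 libraries and -0.07 over the 6 (exact permutation, adjusted p = 0.149 and 0.897). The SD within groups of 0.51 fell to 0.15 once the GC trend of each library was removed, from percentile 87.1 to 28.5 of the genes tested. The GC content of the longest Skil transcript is 41.0%. For Id1 and Id3, at 54.7% and 55.6%, the SD was 1.23 and 1.35 with the trend removed, against 1.18 and 1.30 before.

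The genes whose centered log2 profile was nearest to that of a member were sought among the 7004 genes that averaged 5 FPKM or more, by root mean square difference. For Id1 the nearest was Id3 (0.29, where the Id1 profile itself had a root mean square of 1.01), followed by Ccnd1, the cyclin D1 gene (0.53). For Id3 the nearest were the unnamed locus MSTRG.21833 and Cda (cytidine deaminase), both at 0.66, against 1.10 for its own profile. Id1, at 0.29 from Id3, and Smad6 averaged under 5 FPKM and were not among the candidates. Id2 was nearest to Lsm8 and Apex1 (0.14 and 0.15, against 0.38). Skil was nearest to Ogt and Nmt2 (both 0.08, against 0.43), and Smad7 to Dzip1l and Ubl3 (0.11 and 0.12, against 0.50). Without the 3 libraries set apart, Id3 was still the nearest to Id1 (0.31, against 0.66). The other nearest genes given here fell to between rank 7 (Cda to Id3) and rank 96 (Apex1 to Id2).

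The question of the design was whether straining, and blebbistatin, changed these levels. In MS against CTL, 0 of 10 members passed an adjusted p of 0.05 and 0 passed an unadjusted p of 0.05, where 0% and 0.158% of the 10109 genes tested did (limma with Benjamini-Hochberg adjustment). In the blebbistatin group against MS the members again gave 0 and 0, beside 0% and 1.25% of all genes, and against CTL 0 and 0, beside 0% and 0.089%. All 3 unadjusted shares lay under the 0.05 that such a threshold passes when nothing differs. The fit was thus strict in these data, and a count of 0 members says little about an absence of change. Groups that did not overlap were found for 0, 0 and 1 member, beside 3.17%, 3.73% and 2.08% of all genes. The median log2 fold change of the members was -0.08, 0.05 and 0.01, and 2, 5 and 6 of the 10 were above 0. Over all genes tested the medians were -0.002, -0.006 and -0.013. The comparisons share their libraries in pairs and are not independent.

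The intervals of the Id genes were wide. In MS against CTL the log2 fold change was -0.49 for Id3 (95% interval -2.46 to 1.48) and -0.39 for Id1 (-2.19 to 1.41), so that neither a fall nor a rise of 2-fold lies outside them. In the blebbistatin group against MS they were 0.72 (-1.26 to 2.69) and 0.73 (-1.07 to 2.53). Without the 3 libraries set apart the values were -0.47 and -0.58 in MS against CTL and 0.78 and 1.01 in the blebbistatin group against MS. Without blebbistatin replicate 3, the library with the highest Id1 and Id3, the latter became 0.03 for Id3 and 0.001 for Id1, and without blebbistatin replicate 2 they became 1.40 and 1.46. Id2 was at 0.13 in MS against CTL (-0.60 to 0.86), Smad6 at -0.27 (-0.89 to 0.35), Smad7 at -0.09 (-1.06 to 0.87) and Skil at 0.08 (-0.75 to 0.91). In bulk RNA a change in the share of cells that express a gene and a change in RNA per cell cannot be told apart.

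**Figure D4:**
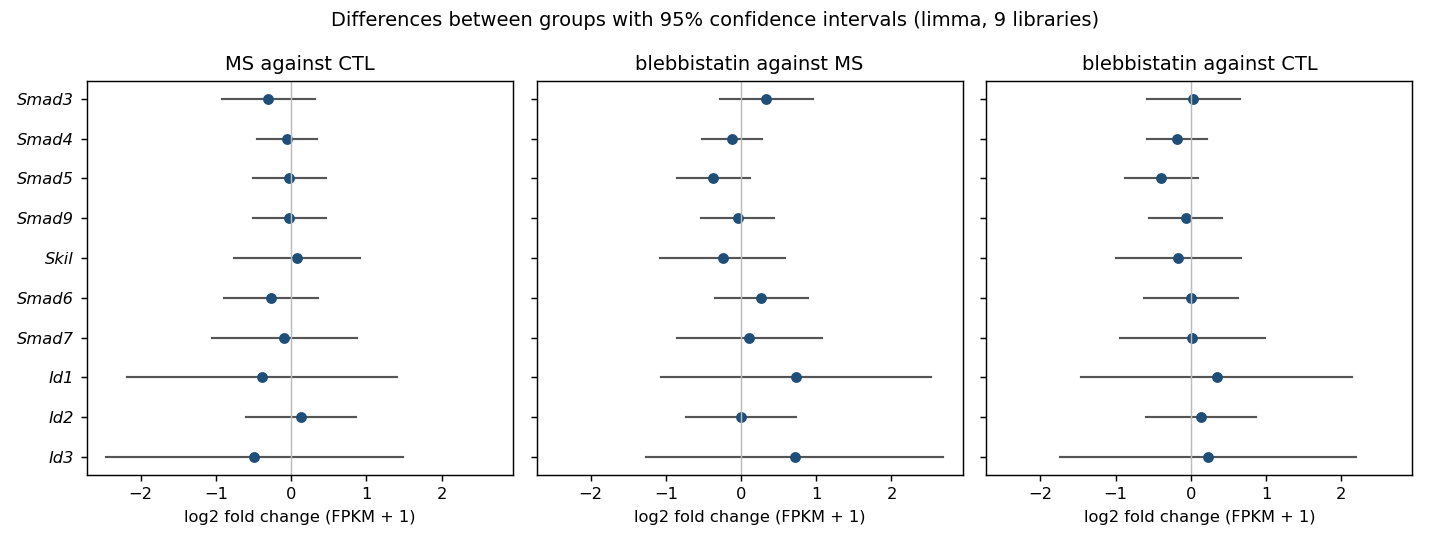
Log2 fold change of each member on the log2(FPKM + 1) scale in the 3 comparisons (points) with its 95% confidence interval (lines), from a limma fit over 9 libraries. Every interval includes 0, and those of Id1 and Id3 are the widest, up to -2.46 to 1.48 for Id3 in MS against CTL.

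The other genes of the pathway were taken from 7 role lists of ligands, receptors, inhibitors, regulators, targets and E proteins, in which 33 genes averaged 1 FPKM or more. Of these 0 passed the adjusted threshold in each of the 3 comparisons, beside 0% of all genes tested (limma). At an unadjusted p under 0.05 the count was 0, 1 and 0, beside 0.158%, 1.25% and 0.089% of all genes. Groups did not overlap for 1, 1 and 0 of the 33 genes, beside 3.17%, 3.73% and 2.08% of all genes. The gene under the unadjusted threshold was Smurf1, a ubiquitin ligase for SMAD1 and SMAD5. It was at 11.1, 14.0 and 13.8 FPKM in MS and 17.3, 17.1 and 15.2 FPKM in the blebbistatin group, without overlap. Its log2 fold change was 0.33 with an interval of 0.03 to 0.63 (unadjusted p = 0.0357, adjusted p = 0.897, limma). Ski, the relative of Skil, had CTL values of 19.0, 19.5 and 22.1 FPKM and MS values of 14.9, 18.1 and 18.4 FPKM, without overlap, and did not pass the test (-0.23, adjusted p = 1.00, limma). The log2 fold changes of the 33 genes ran from -0.34 (Ccn2) to 0.48 (Usp15) in MS against CTL, with 12 above 0.

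Of 14 ligand genes, 9 were listed at 0 in all libraries, among them Bmp2, Bmp4, Bmp6 and Bmp7, and only Gdf11, Tgfb1 and Tgfb3 reached a mean of 1 FPKM. Gdf11 was at 12.9 and Tgfb1 at 10.2 FPKM on average. Gdf2 (BMP9), looked up after the other values had been seen, was also listed at 0 in all libraries and Bmp10 was at most 0.00559 FPKM. Of 13 receptor genes 10 were tested. Eng (endoglin), a co-receptor known from endothelial cells, was the highest at 119 to 179 FPKM, followed by Acvrl1 at 15.9 to 34.1 FPKM, a receptor of BMP9 and BMP10. The endothelial genes Cdh5, Kdr and Tek were listed at 0 in all libraries and Pecam1 was at most 0.0361 FPKM. Acvr1 (ALK2), another type I receptor for BMPs, had a mean of 13.5 FPKM, and the BMP receptors Bmpr1a and Bmpr2 had means of 3.85 and 2.62 FPKM. The cells were in medium with serum, whose content of ligands was not measured.

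**Figure D5:**
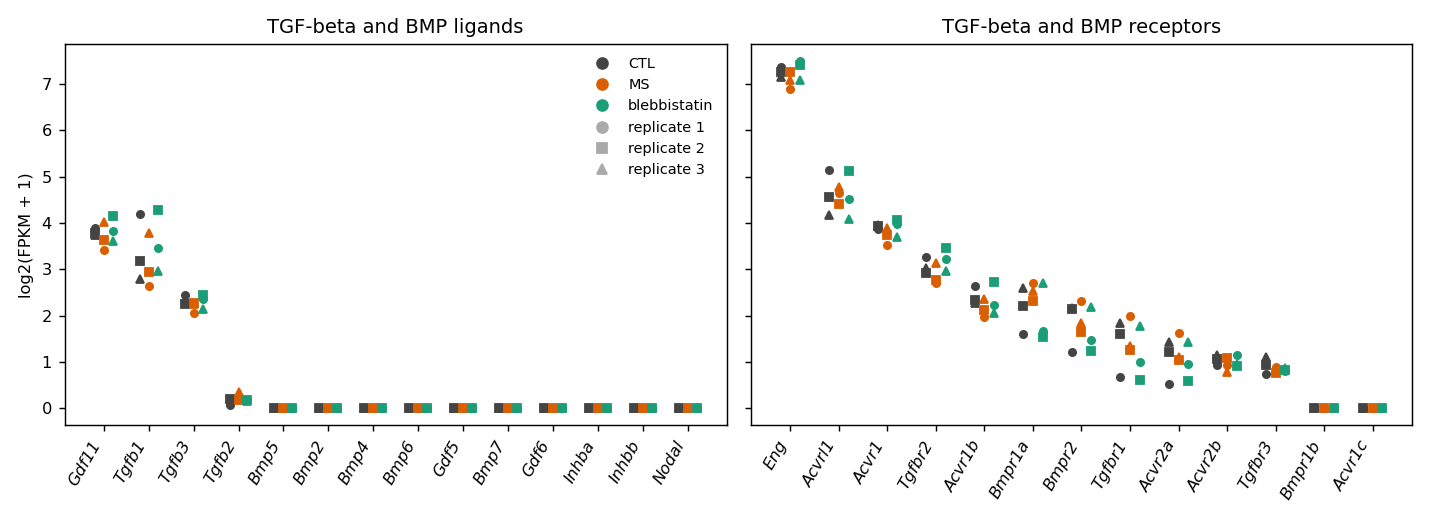
Log2(FPKM + 1) of 14 ligand genes (left) and 13 receptor genes (right) of the TGF-beta family in the 9 libraries, with colors for the groups and symbols for the replicate numbers. Gdf11, Tgfb1 and Tgfb3 are the ligands above 1 FPKM on average, Eng and Acvrl1 are the highest receptors, and the groups overlap for every receptor tested.

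Downstream of the receptors, Nedd4l and Tgif2 were the highest of 10 intracellular regulators, with means of 34.9 and 32.9 FPKM, and Ltbp3, which binds latent TGF-beta, was the highest of 10 extracellular genes at 45.8 FPKM. Among TGF-beta target genes Cdkn1a (p21) was at 178 and Jun at 13.6 FPKM, while Cdkn2b was listed at 0 in all libraries. The E protein genes, whose products are the partners of the ID proteins, were all tested, with Tcf3 at 37.4 and Tcf12 at 22.2 FPKM. Id4, Msx1, Msx2 and Dlx5 were listed at 0 in all libraries.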

How the data were processed

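RNA was extracted with TRIzol from the cells and libraries were made with a SMARTer mRNA kit, per the labels. The authors deposited 1 FPKM value per gene and library, which scales fragments by gene length and mapped fragments. The values of CTL replicate 1 were headed by the sample name in place of the unit and were read as FPKM. The labels name GRCm38 (mm10), and the aligner, counter and annotation are not given in the sources used here. No common step was found among low values, so depth is unknown. Values were compared as log2(FPKM + 1), which understates changes of low genes. All 10109 genes averaging 1 FPKM or more were tested in limma 3.58.1 (R 4.3.3; lmFit and eBayes with trend, 9 libraries, two-sided, Benjamini-Hochberg). The fit was tested on simulated data. GC content (GENCODE M21, longest transcript) was known for 95.6% of genes tested, and its trend was removed by loess (span 0.5). Correlations used exact permutation (scipy 1.17.1). Plots were drawn with matplotlib 3.10.9. Members and lists were chosen with earlier results of these data known. Named genes were all members, the 2 highest of each role list, those past a threshold, and the 2 nearest profiles of 5 members. Others were named after their values were seen. Alternatives are given at the end.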

Additional observations from a re-analysis of the deposited data

How the results depend on the processing

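The counts of members and of pathway genes past an adjusted p of 0.05 were 0 in the 3 comparisons under all alternatives run (limma): a pseudocount of 0.1, a minimum mean of 5 FPKM (which keeps 5 members), no minimum, median-of-ratios factors, quantile normalization, GC trend removed, no mean-variance trend, only the groups compared, the 3 libraries set apart left out, each library left out, and the replicate number as a block (count 0). Samples with the same replicate number did not in general deviate together (median r -0.23, range -0.78 to 0.84, over 0.1 in 2 of 9 pairs). The main fit did not pair them. This check cannot exclude a weaker shared batch, because the 3 libraries set apart carry different numbers. The order of levels kept 8 of 10 positions by median FPKM, with Id3 and Smad5 exchanged.

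Apart from single libraries, 269 of 285 log2 fold changes kept their direction. No minimum, the minimum of 5 FPKM, no mean-variance trend, only the groups compared and the replicate block cannot change a log2 fold change. Agreement under those settings was fixed in advance and is no sign of stability. The 16 that turned were small, and the cause was not tested. In MS against CTL, Skil was at -0.063 under quantile normalization, -0.097 without the 3 libraries and -0.13 with the GC trend removed, and Smad7 at 0.00072 with the GC trend removed. In the blebbistatin group against MS, Smad9 was at 0.10, 0.049 and 0.062 under these settings in the same order, Id2 at 0.029 with median-of-ratios factors, 0.14 without the 3 libraries and 0.22 with the GC trend removed, and with the latter Smad7 was at -0.021 and Skil at 0.089. Against CTL, Smad6 was at -0.0031 with a pseudocount of 0.1 and -0.043 with the GC trend removed, and Smad7 at -0.12 without the 3 libraries and -0.021 with the GC trend removed.

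With each library left out, 20 of 30 log2 fold changes turned in direction at least once. In MS against CTL they ran from -0.24 to 0.070 (Smad4), -0.25 to 0.13 (Smad5), -0.53 to 0.18 (Smad7), -0.21 to 0.13 (Smad9), -0.24 to 0.24 (Skil), -1.02 to 0.059 (Id1), -0.063 to 0.35 (Id2) and -1.19 to 0.14 (Id3). In the blebbistatin group against MS they ran from -0.25 to 0.060 (Smad4), -0.17 to 0.41 (Smad7), -0.20 to 0.043 (Smad9) and -0.24 to 0.33 (Id2), and against CTL from -0.15 to 0.24 (Smad3), -0.19 to 0.22 (Smad6), -0.42 to 0.32 (Smad7), -0.25 to 0.080 (Smad9), -0.48 to 0.071 (Skil), -0.39 to 1.07 (Id1), -0.11 to 0.47 (Id2) and -0.46 to 0.92 (Id3). Smad5 passed an unadjusted p of 0.05 without blebbistatin replicate 3, at -0.54 against CTL (adjusted p = 0.900, limma) and -0.52 against MS (adjusted p = 0.450, limma), without MS replicate 3 (-0.39 against CTL) and without MS replicate 2 (-0.52 against MS).

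Alternatives for the relations with Id3, and the spread, order and profiles without the 3 libraries, were added after seeing the data. With a pseudocount of 0.1 and with the GC trend removed, r was 0.98 and 0.97 for Smad6, 0.97 and 0.97 for Id1 and 0.93 and 0.92 for Atoh8. With each library left out it ran from 0.98 to 0.99 for Smad6, 0.96 to 0.98 for Id1, 0.93 to 0.96 for Atoh8, 0.82 to 0.93 for Id2, 0.83 to 0.91 for Smad7 and 0.66 to 0.89 for Smad9. The Smad9 relation was no longer past the threshold with a pseudocount of 0.1 (r = 0.72, adjusted p = 0.0547, exact permutation) or without any 1 of 7 libraries. The number of libraries, 3 per group, and the unknown depth limit what could be detected for Smad7, Smad9 and Skil, all near 1 FPKM. The spread between libraries was the larger limit for Id3 and Id1. In MS against CTL their log2 fold changes had an SE of 0.87 and 0.80, against 0.22 for Smad9.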
